A study of Mus musculus with 9 samples.

Results

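Forkhead (Fox) genes encode transcription factors that share a winged-helix DNA-binding domain, and 8 of them are described here in cartilage and bone of the mouse: Foxa2, Foxa3, Foxc1, Foxc2, Foxo1, Foxo3, Foxp1 and Foxp2. They were taken by symbol from a count table of 43472 genes that holds 44 forkhead genes in all. Each of the 8 passed the filter on low counts, which left 14257 genes for testing. Foxa2 had no read in Bone and passed through its reads in MatC. The RNA came from C57BL/6J mice, the only strain named, with no allele, treatment or age named for any group. The 3 groups were immature cartilage (ImC, immature chondrocytes), mature cartilage (MatC, mature chondrocytes) and bone (Bone, osteoblasts), with 3 libraries each. Nothing in the labels ties the libraries of a group to separate animals. The p-values therefore speak only to the spread over these libraries, which may be technical. The question behind the comparisons is how regulators of cartilage and of bone are expressed as cartilage matures.

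Forkhead proteins bind DNA around a short core sequence, and FoxA proteins are known as pioneer factors that can bind closed chromatin. In growth cartilage, FoxA and FoxC factors are known to act on genes of the hypertrophic chondrocyte, the enlarged cell of mature cartilage. FoxO factors are held in the cytoplasm when insulin and growth factor signals activate the kinase Akt, and they regulate genes of cell cycle arrest, oxidative stress and autophagy. FoxP factors are mainly known as repressors that work as dimers, and Foxp1 and Foxp2 are expressed in the perichondrium and in skeletal precursors. Messenger RNA levels, as measured here, say nothing of where such a protein lies in the cell.

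The libraries differed in depth and composition, and 2 of them stood apart. Total counts ran from 7913684 to 23159547 per library. Mitochondrially encoded genes took 32% to 55% of the counts in ImC, 33.7% to 82.3% in MatC and 7.24% to 8.91% in Bone. MatC replicate 3 had the highest mitochondrial share and the fewest genes detected, 14940, where every other library had at least 17535. In it 1 read equalled 0.283 CPM, against at most 0.0856 CPM elsewhere (CPM, counts per 1e6 reads). ImC replicate 3 had the highest mitochondrial share of ImC (55%), and its summed level of 9 erythroid markers was 1430 CPM against 10 and 21.3 CPM in the other ImC libraries. CPM values are scaled by trimmed-mean (TMM) factors, which equalize the bulk of genes between libraries.

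The labels were checked against defining markers. The cartilage collagen Col2a1 averaged 8919 ± 752 CPM (SD, n = 3) in ImC, 7188 ± 2095 CPM in MatC and 456 ± 201 CPM in Bone. The proteoglycan Acan averaged 1113 ± 241, 1040 ± 449 and 1.12 ± 0.698 CPM. Col10a1, the collagen of hypertrophic cartilage, averaged 0.541 ± 0.181 CPM in ImC, 2170 ± 2244 CPM in MatC and 1.67 ± 0.819 CPM in Bone, and the bone matrix gene Ibsp averaged 10.7 ± 4.98, 2681 ± 2955 and 18480 ± 1959 CPM. MatC and Bone also held RNA of other cells: 16 endothelial markers summed to 16.7 to 33.8 CPM in ImC, 125 to 412 in MatC and 80.6 to 236 in Bone. Of these 16 endothelial markers, 3 (Cldn5, Robo4 and Sox17) were at 0 reads in ImC, and all the others had reads there. The 13 osteoclast markers summed to 43.3 to 81 CPM in ImC, 122 to 773 in MatC and 651 to 1330 in Bone, and the 14 macrophage and leukocyte markers to 11.8 to 32.3, 26.3 to 122 and 62.6 to 151. The 17 perichondrium, tendon and fibroblast markers summed to 190 to 1220, 1360 to 3270 and 1230 to 2170 CPM. The 9 erythroid markers summed to 874 to 3510 CPM in MatC and 6440 to 9210 CPM in Bone. The 15 skeletal muscle markers summed to 21.5 to 58.3 CPM in ImC, 38.8 to 515 in MatC (515 in replicate 2) and 15.3 to 145 in Bone. In such bulk samples, fewer cells of a type and less RNA per cell cannot be told apart.

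The promoters of Foxa3, Foxa2 and Foxo1 are shown first, because the FoxA pair was called lower and Foxo1 higher in Bone than in ImC. Foxp2, which was also called lower, had no entry. Each line gives the 250 bases before the RefSeq start (GRCm38.p6), written 5′ to 3′ on the gene's strand, with capitals on matches of TATAAA or CCAAT on either strand. The Foxa3 stretch lies at chr7:19023540-19023789 on the minus strand, the Foxa2 stretch, before the first of its 3 starts, at chr2:148046970-148047219 on the minus strand, and the Foxo1 stretch at chr3:52268087-52268336 on the plus strand.
Foxa3: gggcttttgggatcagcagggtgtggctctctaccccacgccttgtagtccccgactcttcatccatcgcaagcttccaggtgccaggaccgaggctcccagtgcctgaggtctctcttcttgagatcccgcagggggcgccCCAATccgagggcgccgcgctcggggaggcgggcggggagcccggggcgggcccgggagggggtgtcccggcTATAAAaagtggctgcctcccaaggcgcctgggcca
Foxa2: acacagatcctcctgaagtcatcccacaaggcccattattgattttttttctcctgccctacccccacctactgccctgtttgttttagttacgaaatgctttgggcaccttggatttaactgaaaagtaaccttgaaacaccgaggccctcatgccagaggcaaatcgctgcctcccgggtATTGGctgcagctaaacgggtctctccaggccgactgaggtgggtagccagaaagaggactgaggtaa
Foxo1: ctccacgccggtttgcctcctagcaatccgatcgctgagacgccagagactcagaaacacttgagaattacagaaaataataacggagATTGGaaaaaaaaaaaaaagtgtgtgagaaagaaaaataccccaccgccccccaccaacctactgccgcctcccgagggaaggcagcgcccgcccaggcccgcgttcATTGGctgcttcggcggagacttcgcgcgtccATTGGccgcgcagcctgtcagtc

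The Foxa3 stretch held TATAAA with its first base 36 bases before the start and CCAAT 108 bases before it. The Foxo1 stretch held 3 matches of CCAAT and none of TATAAA, and the Foxa2 stretch held 1 match of CCAAT. Over windows of 300 bases that also take the 50 bases after the start, TATAAA was in 2 and CCAAT in 5 of the 10 starts of the 6 members with an entry. Among all 32851 RefSeq promoters, 13.6% held TATAAA and 37.4% held CCAAT. The forkhead core TGTTTAC, searched with its reverse complement GTAAACA, was in 0 of the 10 member starts and in 3.65% of all promoters, so these letters were not in the members' windows.

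Both FoxA genes were called lower in Bone than in either cartilage group, and Foxa3 had more reads than Foxa2 in every library of ImC and MatC. Foxa3 (chr7:19013284-19023538, minus strand, GRCm38) encodes a FoxA factor best known from liver and gut. It measured 43.8, 30.6 and 51.9 CPM in the 3 ImC libraries, 30.6, 17.7 and 66.5 CPM in MatC and 0.162, 0.0856 and 0.0563 CPM in Bone. The ImC and MatC libraries overlapped and every Bone library lay far below both; the 3 Bone values rest on 3, 1 and 1 reads. Foxa3 fell by 8.39 ± 0.69 (SE) on the log2 scale from MatC to Bone (336-fold, adjusted p = 2e-04, edgeR's quasi-likelihood test with Benjamini-Hochberg adjustment). It was 373-fold lower in Bone than in ImC (log2 fold change -8.54 ± 0.69, adjusted p = 8.19e-05). Between MatC and ImC the log2 fold change was -0.15 ± 0.45 (adjusted p = 0.872), which did not pass the test, and its sign turned when ImC replicate 3 (0.02) or MatC replicate 2 (0.20) was left out.

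Foxa2 (chr2:148042877-148046969, minus strand), the other FoxA gene, was low in ImC and had no read in Bone. It measured 0.583, 0.0496 and 3.99 CPM in ImC, 7.58, 8.11 and 17.3 CPM in MatC and 0 in each Bone library. Every MatC library was above every ImC library, and the ImC libraries differed by 80.3-fold among themselves, from 1 read to 56 reads. With 3 reads over the Bone group as the floor, Foxa2 was at least 143-fold lower in Bone than in MatC (adjusted p = 0.022) and at least 22.1-fold lower than in ImC (adjusted p = 0.0241). These bounds pool the reads of a group. In ImC 56 of the 64 reads came from replicate 3, and replicate 2 (0.0496 CPM) lay below the Bone floor of 0.0626 CPM. Both calls rest on few libraries, and with ImC and Bone fitted alone Foxa2 did not pass the filter on low counts. Against MatC the call was lost without any 1 of the Bone libraries (adjusted p = 0.0759 to 0.0917) or without MatC replicate 3 (0.0596), and against ImC without any 1 of the Bone libraries (0.0621 to 0.064) or without ImC replicate 3 (0.0593), and in limma-voom (0.0716). From ImC to MatC the log2 fold change was 2.82 ± 1.14 (7.07-fold, adjusted p = 0.173), which did not pass. Without ImC replicate 3 it was 5.21 with an adjusted p of 0.0283, and without replicate 3 of both cartilage groups 4.78 (0.0242). It also passed without the low-count filter (0.0314) and in limma-voom (0.0348).

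**Figure D1:**
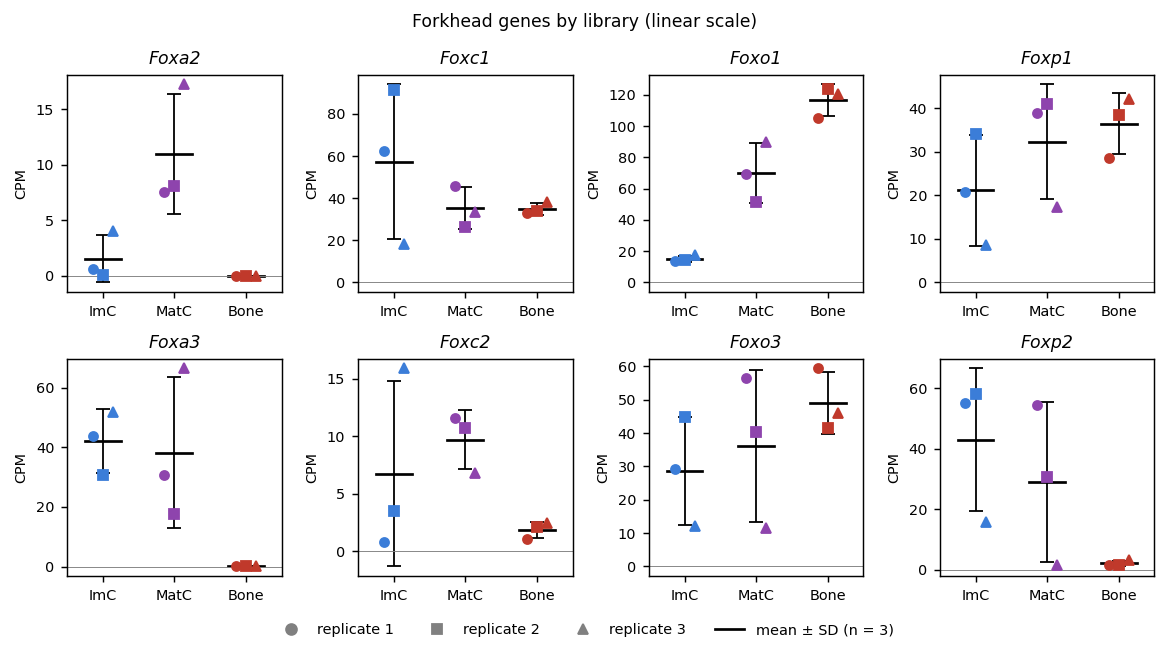
Level of each forkhead gene in CPM (linear vertical axis, different range per gene) in the 3 libraries of ImC, MatC and Bone; symbols mark the replicate number, bars the mean and SD (n = 3). Foxo1 is lowest in ImC (13.5 to 17.4 CPM) and highest in Bone (105 to 124 CPM), Foxa3 is under 0.2 CPM in Bone, and replicate 3 of ImC and MatC lies lowest of its group for Foxo3, Foxp1 and Foxp2.

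The FoxC genes did not pass the test in any comparison, and the libraries of ImC disagreed about them. Foxc1 (chr13:31806633-31812476, plus strand), a regulator of mesenchyme and early skeletal development, measured 62.3, 91.2 and 18.4 CPM in ImC, 45.9, 26.5 and 33.4 CPM in MatC and 32.9, 33.9 and 38.0 CPM in Bone. The Bone libraries lay within 1.16-fold of each other, while ImC replicate 3 was below and the other ImC libraries were above all of MatC and Bone. The log2 fold changes were -0.70 ± 0.48 from ImC to MatC (adjusted p = 0.401), -0.01 ± 0.47 from MatC to Bone (0.991) and -0.72 ± 0.47 from ImC to Bone (0.274). Without ImC replicate 3, Foxc1 passed as lower in MatC (-1.12, adjusted p = 0.0474) and in Bone (-1.13, 0.0187) than in ImC. In that library the summed perichondrium, tendon and fibroblast markers were also lowest, at 190 CPM against 848 and 1220 CPM, and their part in the Foxc1 value was not tested.

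Foxc2 (chr8:121116171-121118895, plus strand), known for its role in lymphatic vessels and the axial skeleton, was a low-level gene. It measured 0.833, 3.47 and 15.9 CPM in ImC, 11.6, 10.7 and 6.79 CPM in MatC and 1.08, 2.14 and 2.42 CPM in Bone. All MatC libraries were above all Bone libraries, and ImC replicate 3 was the highest of the 9. The difference of Bone from MatC was -2.38 ± 0.86 on the log2 scale (5.19-fold lower) and did not pass (adjusted p = 0.134), although it did without ImC replicate 3 (-2.37, 0.0295), with the 2 groups fitted alone (-2.36, 0.0172) and in DESeq2 (-2.35, 0.04). From ImC to MatC the log2 fold change was 0.54 ± 0.81 (adjusted p = 0.724). It became 2.34 (0.0466) without replicate 3 of both cartilage groups and -0.004 without ImC replicate 1. From ImC to Bone it was -1.84 ± 0.84 (adjusted p = 0.12), and it passed without ImC replicate 1 (-2.32, 0.0349). The endothelial markers summed to 16.7, 29.2 and 33.8 CPM in ImC replicates 1 to 3, 151, 412 and 125 CPM in MatC and 80.6, 222 and 236 CPM in Bone, and their part in the Foxc2 values was not tested.

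Foxo1 was the 1 member called higher in mature than in immature cartilage, and it was also called higher in bone than in immature cartilage. Foxo1 (chr3:52268336-52353221, plus strand) encodes the main target of insulin signaling among the FoxO factors, and it is known to act in chondrocytes and osteoblasts. It measured 13.5, 14.2 and 17.4 CPM in ImC, 69.4, 51.3 and 90.0 CPM in MatC and 105, 124 and 121 CPM in Bone. The 3 groups did not overlap, and within ImC the libraries lay within 1.29-fold of each other. Foxo1 rose 4.65-fold from ImC to MatC (log2 fold change 2.22 ± 0.28, adjusted p = 0.00291) and was 7.74-fold higher in Bone than in ImC (2.95 ± 0.29, adjusted p = 0.000201). From MatC to Bone the difference was 0.73 ± 0.27 (1.66-fold) and did not pass (adjusted p = 0.138). It passed without replicate 3 of both cartilage groups (0.97, 0.026). On the log2 scale the MatC level lay 75.1% of the way from ImC to Bone.

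The rise of Foxo1 in MatC was compared with markers of other cell types and under other scalings. Osteoblast markers summed to 993 to 2190 CPM in ImC and to 9970, 31700 and 3050 CPM in MatC replicates 1 to 3, where Foxo1 measured 69.4, 51.3 and 90.0 CPM. In the same MatC libraries the endothelial sums were 151, 412 and 125 CPM and the macrophage and leukocyte sums 34.9, 122 and 26.3 CPM. The part of these cells in the Foxo1 values was not tested. Without replicate 3 of both cartilage groups the rise was 2.13 on the log2 scale (adjusted p = 0.00148). With raw library sizes in place of TMM factors it was 1.67 and missed the threshold (adjusted p = 0.106), a scaling under which the median of all tested genes shifted to -0.51. On the opposite strand, the gene Gm20402 overlaps 7.78% of the annotated Foxo1 exon bases. The library kit does not mark strand, so reads there could belong to either gene.

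Foxo3 (chr10:42181841-42276755, minus strand), the other main FoxO gene, did not pass the test in any comparison. It measured 29.2, 44.7 and 12.2 CPM in ImC, 56.5, 40.2 and 11.6 CPM in MatC and 59.4, 41.5 and 46.1 CPM in Bone. The 3 groups overlapped in every comparison, and replicate 3 was the lowest library of both ImC and MatC. The log2 fold changes were 0.34 ± 0.55 for MatC against ImC (adjusted p = 0.745), 0.43 ± 0.55 for Bone against MatC (0.7) and 0.77 ± 0.56 for Bone against ImC (0.314). The first of these turned sign without ImC replicate 3 (-0.016) or MatC replicate 1 (-0.124).

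Foxp2, like the FoxA pair, was lower in bone than in both cartilage groups, while no comparison of its relative Foxp1 passed the test. Foxp2 (chr6:14901349-15441977, plus strand), a factor best known from brain circuits for vocal learning, measured 55.2, 57.9 and 15.9 CPM in ImC, 54.3, 30.7 and 1.70 CPM in MatC and 1.52, 1.63 and 3.21 CPM in Bone. Every ImC library was above every Bone library. MatC replicate 3, with 6 reads, lay inside the range of Bone, and the other MatC libraries lay inside the range of ImC. Foxp2 fell by 4.33 ± 0.97 on the log2 scale from ImC to Bone (20.1-fold, adjusted p = 0.0089, and 0.0515 with raw library sizes). It was 13.7-fold lower in Bone than in MatC (-3.78 ± 0.95), with an adjusted p of 0.0445 that ran from 2e-04 to 0.192 over 21 other settings and missed the threshold in 10 of them. These include leaving out any 1 Bone library (0.121 to 0.192), ImC replicate 1 (0.0696), MatC replicate 1 (0.0869) or MatC replicate 2 (0.0802). Without replicate 3 of both cartilage groups the difference was -4.29 (0.00055). From ImC to MatC the log2 fold change was -0.55 ± 0.83 (adjusted p = 0.726), and it was 0.003 without MatC replicate 3.

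Foxp1 (chr6:98925338-99522721, minus strand), a relative of Foxp2 that can pair with it, measured 20.7, 34.1 and 8.55 CPM in ImC, 38.9, 41.0 and 17.3 CPM in MatC and 28.7, 38.6 and 42.3 CPM in Bone. The groups overlapped in all 3 comparisons, and the lowest library of ImC and of MatC was again replicate 3. The log2 fold changes were 0.62 ± 0.48 for MatC against ImC (adjusted p = 0.464), 0.16 ± 0.48 for Bone against MatC (0.88) and 0.79 ± 0.48 for Bone against ImC (0.236). The difference of Bone from MatC turned to -0.10 without MatC replicate 3.

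**Figure D2:**
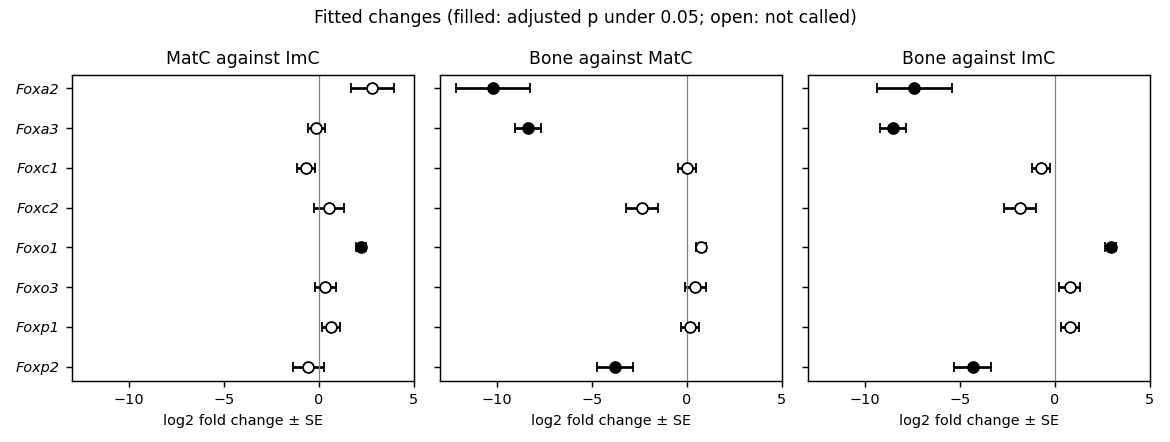
Fitted log2 fold change (horizontal axis, ± SE) of the 8 forkhead genes in each comparison; filled points passed an adjusted p of 0.05 and open points did not. Foxo1 is filled to the right of 0 for MatC and for Bone against ImC (2.22 and 2.95), and Foxa2, Foxa3 and Foxp2 are filled to the left in both Bone comparisons; the Foxa2 points there are fitted against 0 reads and depend on the prior count.

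Counted over the 8 genes, 1 was called as increased and 0 as decreased by edgeR in MatC relative to ImC. At an unadjusted p under 0.05 it was 2 and 0, and DESeq2 gave 1 and 0 and limma-voom 2 and 0. At the adjusted threshold 5.41% of all tested genes were called higher, 2.29% lower and 7.71% either way. For Bone against MatC, 0 members were called higher and 3 lower by edgeR (1 and 4 unadjusted, 0 and 4 in DESeq2, 0 and 2 in limma-voom), where 1.36% of all tested genes were higher, 4.69% lower and 6.05% either way. For Bone against ImC, 1 member was called higher and 3 lower, where 14.3% of all tested genes were higher, 16.8% lower and 31.1% either way. Bone against ImC and Bone against MatC share the Bone libraries, so the same 3 members in both are not 2 independent results. The libraries of the 2 groups did not overlap for 2 members in MatC against ImC, 4 in Bone against MatC and 4 in Bone against ImC, beside 23.9%, 35.6% and 59% of all tested genes. The median log2 fold change of the 8 members was 0.44 in MatC against ImC, -1.20 in Bone against MatC and -1.28 in Bone against ImC, where that of all tested genes was 0.03, -0.03 and -0.02.

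Ratios of paralogs within a library do not depend on the scaling between libraries, and they show which relative of each pair had more reads. They are log2 ratios, not corrected for length. Foxa3 over Foxa2 was 6.17 ± 2.5 (SD, n = 3) in ImC and 1.69 ± 0.49 in MatC, and the lowest ImC library (3.69) was above the highest MatC library (2.01). In Bone the pair held too few reads for a ratio. Foxc1 over Foxc2 was 3.69 ± 3.10 in ImC, 1.85 ± 0.50 in MatC and 4.27 ± 0.54 in Bone, with Bone above MatC in every library and ImC spread across both. Foxo1 over Foxo3 was -0.75 ± 1.12 in ImC, 1.20 ± 1.51 in MatC and 1.26 ± 0.39 in Bone. The ImC and MatC ranges of that ratio overlapped, since ImC replicate 3 stood at 0.51 and the lowest MatC library at 0.30, while Bone was above ImC in every library.

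Foxp1 over Foxp2 was the ratio whose groups did not overlap in any of the 3 comparisons. It was -1.02 ± 0.34 in ImC, 1.06 ± 1.94 in MatC and 4.15 ± 0.42 in Bone. In ImC Foxp2 had more reads than Foxp1 in every library, and in Bone Foxp1 had more in every library. The MatC libraries stretched from -0.48 to 3.24, and without replicate 3 the MatC mean was -0.03. No test was run on these ratios.

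**Figure D3:**
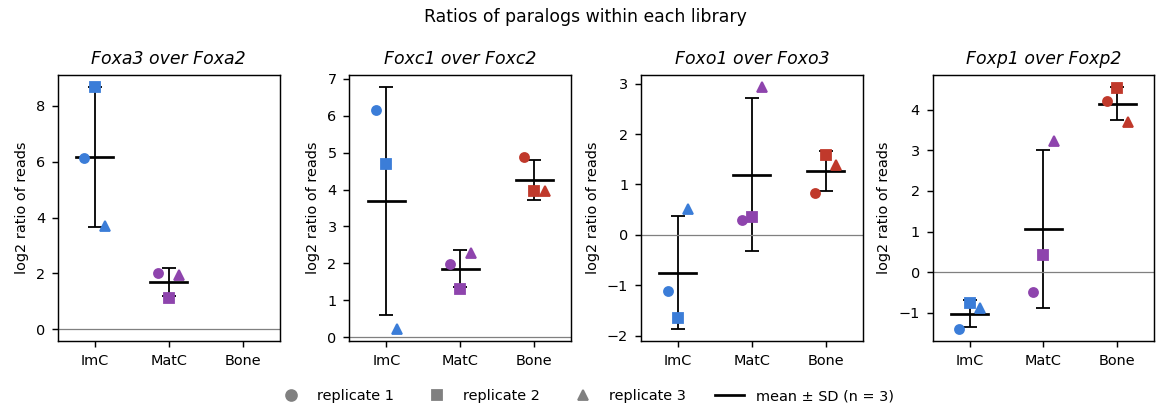
Log2 ratio of the reads of 2 paralogs within each library (vertical axis) by group; symbols mark the replicate number, bars the mean and SD (n = 3), and the grey line marks equal reads. Foxp1 over Foxp2 lies below 0 in all ImC libraries and between 3.71 and 4.53 in Bone, and Foxa3 over Foxa2 has no Bone points because fewer than 10 reads were there.

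Levels of different genes were set in order as CPM per kilobase of annotated exons. In ImC Foxa3 came first (20.7 ± 5.28 CPM per kilobase, SD, n = 3), followed by Foxc1 (9.81 ± 6.28), Foxo3 (3.79 ± 2.15), Foxp2 (2.63 ± 1.44) and Foxc2 (2.47 ± 2.95). Foxo1 (1.74 ± 0.243), Foxp1 (1.54 ± 0.931) and Foxa2 (0.650 ± 0.902) came last. In MatC Foxa3 was again first (18.8 ± 12.4), with Foxo1 second (8.10 ± 2.23), then Foxc1 (6.03 ± 1.68), Foxo3 (4.77 ± 3.0), Foxa2 (4.63 ± 2.30), Foxc2 (3.56 ± 0.939), Foxp1 (2.35 ± 0.956) and Foxp2 (1.77 ± 1.61). In both cartilage groups the library ranges of all 7 neighbouring pairs in the order overlapped. Such ranges do not compare genes within a library, where some neighbours kept their order and others did not. Foxa3 was above Foxo1 in every MatC library and Foxc1 above Foxo3 in every ImC library, but Foxa3 was below Foxc1 in ImC replicate 2.

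In Bone Foxo1 led the order, and fewer neighbouring ranges overlapped. Foxo1 reached 13.4 ± 1.17 CPM per kilobase, above Foxo3 (6.47 ± 1.23), Foxc1 (5.98 ± 0.465), Foxp1 (2.66 ± 0.511), Foxc2 (0.690 ± 0.259), Foxp2 (0.130 ± 0.0580), Foxa3 (0.0498 ± 0.0269) and Foxa2 (0). Of the 7 neighbouring pairs, 6 had ranges apart, and Foxo3 and Foxc1 overlapped. The gaps between Foxp2 and Foxa3 and between Foxa3 and Foxa2 lie near the floor. Foxa3 had 3, 1 and 1 reads in the Bone libraries and Foxa2 had none. Foxo1 held 42.9% to 48.8% of the summed per-kilobase level of the 8 genes in the Bone libraries, 15.4% to 16.9% in MatC and 3.60% to 4.87% in ImC. Foxa3 held 33% to 61.6% of that sum in ImC, 23.7% to 53.2% in MatC and at most 0.282% in Bone. The places in the order depend in part on the length used, since the longest transcripts of Foxp1 and Foxp2 are 7177 and 6760 bases, against 13751 and 16346 bases of exons over all transcripts. With the longest transcript, Foxp2 in ImC moved from 2.63 to 6.36 CPM per kilobase and from the fourth to the third place, and Foxp1 from the seventh to the fifth. In MatC both moved up by 1 place and Foxc2 went from the sixth to the eighth, while in Bone no place changed. Amplification that starts at the poly(A) tail can also favour some transcripts, and its part in these levels was not tested.

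**Figure D4:**
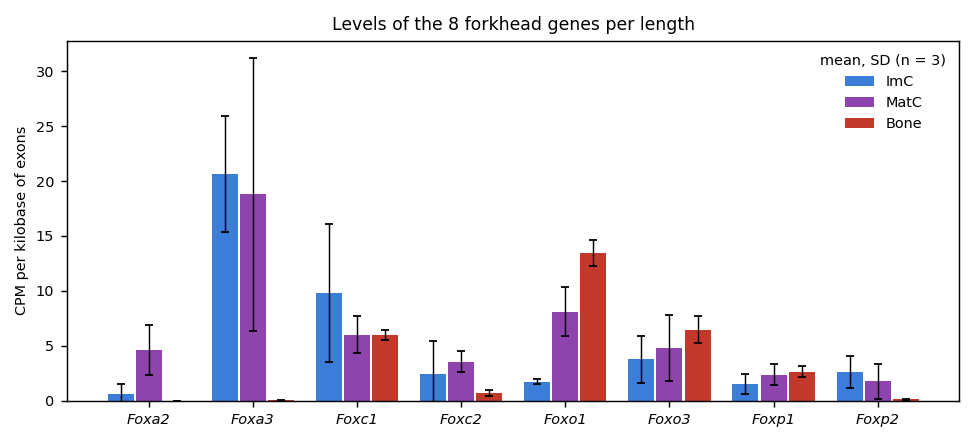
Mean level of the 8 forkhead genes in CPM per kilobase of exons (vertical axis from 0) in ImC, MatC and Bone, with SD bars (n = 3). Foxa3 is the tallest bar in ImC (20.7) and MatC (18.8) and Foxo1 in Bone (13.4).

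Replicate 3 of ImC and of MatC deviated from their group in the same direction for several members. The log2 level of replicate 3 minus the mean of replicates 1 and 2 was -1.55 in ImC and -2.03 in MatC for Foxo3, -1.62 and -1.20 for Foxp1, and -1.82 and -4.48 for Foxp2. For Foxa2 it was 3.46 and 1.12, and for Foxa3 0.50 and 1.51. Foxo1 deviated by 0.33 and 0.59, and replicate 3 was its highest library in ImC and in MatC. Foxc1 and Foxc2 deviated in ImC (-2.03 and 3.09) and less in MatC (-0.06 and -0.70). In Bone the largest such difference among members with over 10 reads in each library was 0.97, for Foxp2. The low members have 7.57, 13.8 and 16.3 kilobases of exons and the FoxA genes 2.37 and 2.04, and Foxo1 has 8.66. Over all tested genes with a known length, the median deviation ran from -0.055 to 0 in ImC and from -0.229 to -0.101 in MatC across 5 classes of exon length. These 2 libraries had the highest mitochondrial share of their groups (55% and 82.3%), and the parts of exon length and RNA quality in the members' deviations were not tested.

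For each member, the genes with the most similar pattern were found by the root-mean-square difference of centred log2 CPM over the 9 libraries, among genes averaging at least 5 CPM. Nearest to Foxa3 were Ncmap (0.334), Itih5l-ps (0.448) and Col9a2 (0.462), the last a collagen IX chain of cartilage. Nearest to Foxo1 were Gpc1 (0.296), Ndrg4 (0.312) and Cited2 (0.312), where a gene drawn from the pool had a median difference of 1.37. Cited2, a transcriptional co-regulator reported as a FoxO target, measured 5.09 ± 0.94 CPM in ImC, 24.9 ± 0.852 CPM in MatC and 33.0 ± 5.28 CPM in Bone. Nearest to Foxc1 were Ddah1 (0.0978), Hif1a (0.127) and Snx18 (0.181), and Hif1a, the oxygen-sensing factor, measured 160 ± 95.4, 112 ± 33.7 and 102 ± 6.30 CPM.

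For the other members the differences of the nearest genes ran from 0.153 to 0.939. Members differ in how much their own pattern varies (root mean square 2.76 for Foxa2 and 0.635 for Foxc1), so these differences do not rank closeness between members. Nearest to Foxa2 were Lims2 (0.783), Pou2f2 (0.912) and Smim5 (0.920), and nearest to Foxc2 were Mecom (0.643), Piezo2 (0.774) and Pkia (0.782). Foxo3 was nearest to Rprd1a (0.153), Mib1 (0.194) and Ifrd1 (0.196). Foxp1 was nearest to Lrrfip1 (0.206), to another forkhead gene, Foxn2 (0.225), and to Tgfbr1 (0.226). Foxp2 was nearest to Plce1 (0.694), Emilin3 (0.846) and Camk1d (0.939). Among the members themselves, the smallest differences were between Foxo3 and Foxp1 (0.426), Foxc1 and Foxp1 (0.737) and Foxc1 and Foxo3 (0.803). These are also the 3 members that varied least (root mean square 0.83 for Foxo3, 0.722 for Foxp1 and 0.635 for Foxc1). The difference between Foxc1 and Foxp1 was larger than the variation of either gene, so the order of the pairs does not rank likeness of pattern. The measure is a description over 9 libraries, some of which deviate together, and it carries no test.

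Of the other 36 forkhead genes in the table, 14 had enough reads for the test, and the 22 others had at most 49 reads over the 9 libraries. Foxq1 was called higher in MatC than in ImC (adjusted p = 0.0433), with 41, 21 and 0 reads in MatC and 0, 2 and 0 in ImC. The gene A530084C06Rik on the opposite strand overlaps 66.1% of the Foxq1 exon bases, so its reads are uncertain, and the call was lost without any 1 library other than MatC replicate 3 (adjusted p = 0.0693 to 0.129). Over the 14, edgeR called 1 higher and 0 lower in MatC (3 and 1 unadjusted, 2 and 0 in DESeq2, 0 and 0 in limma-voom). The Foxq1 call was thus absent in limma-voom. Of all tested genes, edgeR called 5.41% higher and 2.29% lower. Foxo4, the third FoxO gene here, had a pattern unlike Foxo1. It averaged 18.6 ± 5.69 CPM in ImC, 36.2 ± 9.06 CPM in MatC and 9.11 ± 1.17 CPM in Bone, and fell by 1.99 ± 0.33 on the log2 scale from MatC to Bone (adjusted p = 0.00891). From ImC to MatC the difference of 0.96 ± 0.32 did not pass (adjusted p = 0.0976), though every MatC library was above every ImC library. Foxp4, a relative of Foxp1 and Foxp2, averaged 15.1 ± 8.99 and 13.7 ± 8.51 CPM in ImC and MatC and 1.85 ± 0.413 in Bone (-2.86 ± 0.59 from MatC, adjusted p = 0.0214). These calls against MatC were lost without Bone replicate 1 or 2 for Foxo4 (0.0637 and 0.0606), and without any 1 Bone library (0.0963 to 0.115) or MatC replicate 3 (0.0601) for Foxp4.

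In Bone against ImC, 8 of the 14 were called, 4 in each direction, beside 31.1% of all tested genes called either way (14.3% higher and 16.8% lower). Higher in Bone were Foxf1 (0.182 ± 0.0870 CPM in ImC and 3.58 ± 0.823 in Bone, adjusted p = 0.00199), Foxj1, Foxq1 and Foxs1. The 3 last rest on 77, 37 and 37 reads in Bone, and for Foxs1, which had no read in ImC, the difference was at least 11.9-fold. Foxf1, Foxj1, Foxq1 and Foxs1 had 9, 4, 2 and 0 reads over the ImC libraries. They passed the low-count filter only through MatC or Bone libraries, so their calls as higher in Bone depend in part on that filter. Lower in Bone were Foxm1, Foxo4, Foxp4 and Foxd1. Foxm1, a driver of cell division, averaged 15.2 ± 5.46 CPM in ImC and 2.33 ± 0.678 in Bone (adjusted p = 0.00569). Foxd1 had 51, 217 and 0 reads in ImC and 2, 0 and 0 in Bone, so ImC replicate 3 was as low as Bone. Foxd1 passed the low-count filter only through cartilage libraries. Leaving out 1 Bone library ended the calls of Foxq1 (adjusted p = 0.0888 to 0.1), Foxs1 (0.0748 to 0.0978), Foxo4 (0.095 to 0.131) and Foxd1 (0.0505 to 0.0698), and for Foxj1 leaving out Bone replicate 2 or 3 did (0.0806 and 0.075). Leaving out ImC replicate 1 also ended those of Foxq1 (0.104), Foxs1 (0.0715), Foxo4 (0.105) and Foxj1 (0.0672). Leaving out ImC replicate 3 ended those of Foxq1 (0.087), Foxs1 (0.067) and Foxo4 (0.0863), ImC replicate 2 that of Foxs1 (0.0714) and MatC replicate 2 that of Foxq1 (0.0546). Foxf1, which lies near Foxc2 on chromosome 8, was also called higher in Bone than in MatC (2.94 ± 0.64, adjusted p = 0.0264), where Foxc2 was lower in every library. That Foxf1 call was lost without any 1 Bone library (0.102 to 0.141) or MatC replicate 1 (0.0642) or 3 (0.0567).

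**Figure D5:**
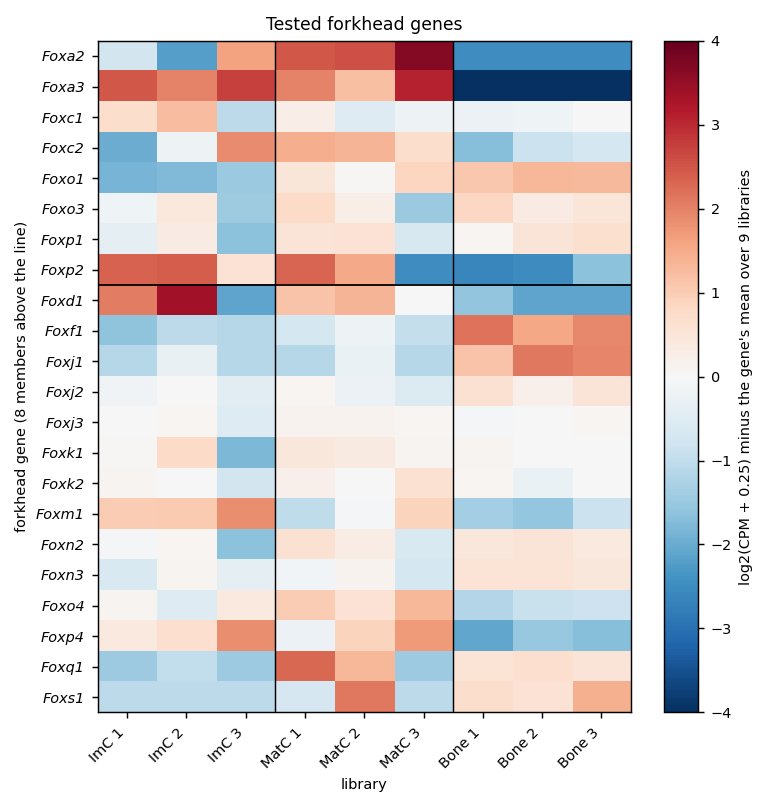
Heat map of the 22 tested forkhead genes (rows, the 8 described here above the line) in the 9 libraries (columns); colour is log2(CPM + 0.25) minus the gene's mean, clipped at 4. Foxa2 and Foxa3 are blue in all Bone libraries and Foxo1 in all ImC libraries, and Foxo3, Foxp1 and Foxn2 are blue in replicate 3 of ImC and MatC.

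A list of 25 reported FoxO target genes, all tested, was read beside Foxo1 and Foxo3. In MatC against ImC 5 were called higher and 0 lower by edgeR (8 and 1 unadjusted, 7 and 0 in DESeq2, 5 and 0 in limma-voom), where 5.41% of all tested genes were called higher and 2.29% lower by edgeR. The median log2 fold change was 0.70 beside 0.03 for all tested genes. Cdkn1a, the cell cycle inhibitor p21, rose from 4.20 ± 1.91 to 82.5 ± 15.7 CPM (log2 fold change 4.28 ± 0.39, adjusted p = 0.000823). Cited2 rose 4.87-fold (adjusted p = 0.00247), and Pik3ip1, an inhibitor of phosphoinositide 3-kinase, rose from 1.80 ± 1.04 to 25.6 ± 13.6 CPM (adjusted p = 0.00617). With raw library sizes these last 2 missed the threshold (0.11 and 0.0541). The other 2 were Trim63 and Tsc22d3. In Bone against ImC 7 of the 25 were called higher and 1 lower, beside 14.3% and 16.8% of all tested genes, with a median of 0.84 beside -0.02. In Bone against MatC only Klf15 was called by edgeR, as lower (-3.42 ± 0.65, adjusted p = 0.0158, and 0.0545 to 0.0985 without 1 Bone library), where 1.36% of all tested genes were called higher and 4.69% lower, with a median of 0.22 beside -0.03. There 2 were higher and 3 lower unadjusted, and DESeq2 called 0 and 3.

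The list of 15 insulin, phosphoinositide 3-kinase and Akt genes upstream of FoxO moved in part. In MatC against ImC 2 were called higher and 0 lower by edgeR (3 and 3 unadjusted, 2 and 3 in DESeq2, 2 and 0 in limma-voom), beside 5.41% and 2.29% of all tested genes, with a median of 0.13. Igf1, the growth factor, rose from 1.55 ± 2.17 to 111 ± 119 CPM (6.18 ± 1.18, adjusted p = 0.0153), and the call was lost with the 2 groups fitted alone (0.0662) or without ImC replicate 1 (0.0551). Sgk1, a kinase that phosphorylates FoxO factors, rose from 2.18 ± 0.748 to 16.7 ± 7.63 CPM (2.96 ± 0.50, adjusted p = 0.00941, and 0.0727 with raw library sizes). In Bone against ImC Igf1, Pik3r1 and Sgk1 were called higher, and Igf1r and Igf2 lower, beside 14.3% and 16.8% of all tested genes. Igf2 averaged 8573 ± 2843 CPM in ImC, 3565 ± 1332 CPM in MatC and 1143 ± 398 CPM in Bone. In Bone against MatC only Igf1r, the receptor, was called by edgeR (43.3 ± 2.59 to 20.8 ± 2.0 CPM, adjusted p = 0.0289), with 2 higher and 5 lower unadjusted and 2 and 3 in DESeq2, beside 4.69% of all tested genes called lower by edgeR. The Igf1r call was lost without any 1 Bone library (0.127 to 0.168), ImC replicate 1 (0.0588) or MatC replicate 1 (0.0531) or 3 (0.0614). The medians were 0.29 there and -0.10 in Bone against ImC.

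A list of 18 hypertrophic chondrocyte genes, among them reported FoxA and FoxC targets, had 17 members tested. In MatC against ImC 12 were called higher and 0 lower by edgeR (14 and 0 unadjusted and in DESeq2, 12 and 0 in limma-voom), beside 5.41% and 2.29% of all tested genes, with a median of 4.04 beside 0.03. These groups differ in chondrocyte maturity by their labels, and several of the genes (Alpl, Ibsp, Spp1, Sp7, Dlx5) are osteoblast markers as well. Col10a1 rose by 11.97 ± 1.04, Mef2c, a factor of chondrocyte hypertrophy, from 35.2 ± 5.41 to 486 ± 131 CPM, and Alpl, the mineralization phosphatase, from 0.816 ± 0.524 to 203 ± 136 CPM. In Bone against MatC 5 were called lower, beside 4.69% of all tested genes: Col10a1, Fgfr3, Ihh, Pth1r and Runx3. The Fgfr3 call was lost without Bone replicate 1 (0.0556) or 2 (0.0545). None was called higher by edgeR or limma-voom, with 1 in DESeq2 and 3 unadjusted, and the median was -0.33. Ihh, the hedgehog ligand of the growth plate, stood at 156 ± 93.0 CPM in MatC and 3.01 ± 1.06 in Bone. Foxa2 shared the order of Col10a1 and Ihh at MatC, the highest of the 3 groups, but the Col10a1 and Ihh levels were higher in Bone than in ImC in every library, whereas Foxa2 was lower there. In Bone against ImC 11 were higher and 3 lower, beside 14.3% and 16.8% of all tested genes, with a median of 3.85.

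A list of 14 genes named with FoxP and FoxC factors in skeletal work, 12 of them tested, had none called in MatC against ImC or Bone against MatC by edgeR or limma-voom, where edgeR called 7.71% and 6.05% of all tested genes either way. DESeq2 called 1 higher and 4 lower in the first and 2 and 1 in the second, and 1 and 6, and 2 and 2, had an unadjusted p under 0.05 in edgeR. In Bone against ImC, where 31.1% of all tested genes were called, 3 of the 12 were. The homeobox gene Msx2 was higher (adjusted p = 0.0107), and Pthlh, the parathyroid hormone-like ligand (21.1 ± 13.9 to 0.122 ± 0.129 CPM, adjusted p = 0.00215), and the hedgehog receptor component Smo (63.7 ± 3.04 to 38.3 ± 4.13 CPM, adjusted p = 0.0311) were lower. The Smo call was lost without any 1 Bone library (0.0838 to 0.152) or ImC replicate 1 (0.0876) or 2 (0.0614). The medians of this list were -0.82, 0.37 and -0.61 in the 3 comparisons.

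The forkhead core was also searched in the promoters of these lists. It was in 4 of the 22 FoxO target genes with an entry (18.2%), 1 of 14 hypertrophic genes (7.14%), 1 of 13 upstream genes (7.69%), 1 of 12 partner genes (8.33%) and 1 of 22 other forkhead genes (4.55%), beside 4.05% of all 27025 genes. The matches in genes called in at least 1 comparison are shown, with 17 bases on either side and the core in capitals, on the gene's strand. The Mmp13 match, in the gene of a matrix-degrading collagenase, begins 81 bases before the start (chr9:7272416-7272456, plus strand), the Trim63 match, in a ubiquitin ligase gene of muscle atrophy, 194 bases before it (chr4:134314909-134314949, plus strand), and the Bcl2l11 match, in a gene of the cell death program, 227 bases before it (chr2:128125794-128125834, plus strand).
Mmp13: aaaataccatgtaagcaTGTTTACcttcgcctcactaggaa
Trim63: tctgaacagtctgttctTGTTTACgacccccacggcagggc
Bcl2l11: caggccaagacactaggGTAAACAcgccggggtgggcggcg

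The first 2 carry TGTTTAC on the gene's strand and the third its reverse complement. Mmp13 had 1 read in ImC and 958 in MatC, a ratio of pooled reads of 1430 (95% counting interval 256 to 56600). Trim63 was called higher in MatC and in Bone than in ImC, and Bcl2l11 in Bone than in ImC. Binding was not measured, so a match is a sequence and not a bound site.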

How the data were processed

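RNA of 9 libraries was amplified for 1 round and prepared with a TruSeq v2 kit, which does not mark strand, per the labels' protocols. The authors deposited whole-number raw counts per gene symbol. Their second deposited table holds a score, normalized counts rounded to integers, used here only to read the authors' scaling factors back (from genes above 2000 reads). Per the submitters' processing notes, Trimmomatic 0.30, TopHat2, Bowtie2, HTSeq and edgeR were used with mm10; roles and order are not given in the sources used here.

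Groups came from the titles. Counts were filtered with filterByExpr (minimum count 10, which kept 99.8% or more of any library's counts), scaled by TMM and fitted in edgeR 4.0.16 (R 4.3.3; quasi-likelihood test, all 9 libraries in 1 fit). P-values were adjusted by Benjamini-Hochberg over 14257 genes, and genes under 0.05 were called. The SE was obtained by dividing the size of the log2 fold change by the root of F. A group at 0 reads was set to 3 reads over the group (0.0626 CPM in Bone, 0.0649 in ImC); such bounds and the counting interval cover counting error only. Ratios used reads plus 0.5, and only libraries with 10 or more reads over the pair. The patterns of neighbours used log2 CPM with a prior count of 2. Coordinates and exon lengths are GENCODE M21 on GRCm38, which mm10 denotes; 93.8% of the tested symbols matched. Promoters are RefSeq's.

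All 8 members are named, every other forkhead gene called, up to 3 called genes per list and comparison by smallest p, and 3 neighbours per member. Genes named without values, and the matched promoters shown, were chosen after their values were seen. The members and the 13 lists were chosen with earlier results of these data known. The result of 1 gene of these lists is not reported here. The steps were tested on simulated counts. Alternatives were other scalings, filters, tests, gene lengths and offsets, a replicate block, and leaving out libraries. The check of shared replicate numbers stands with the block result.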

Additional observations from a re-analysis of the deposited data

How the results depend on the processing

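Of the members' tested values under 21 other settings, 448 kept direction and side of the threshold, 21 lost and 15 gained a call, and 19 changed sign, none of these a called value; of the other named genes, 684 kept both, 83 lost a call and 0 changed sign. The Foxa3 calls in Bone and the Foxo1 call between Bone and ImC held under all settings run. The replicate 3 alternative was chosen after seeing the data. The cause was not tested for any change below.

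Of the 8 members, those called higher in MatC than in ImC numbered 0 with library size only, 2 without the low-count filter, 2 with limma-voom, 3 without replicate 3 of both ImC and MatC, and 1 to 2 with 1 library left out; those called lower numbered 0 to 1 with 1 library left out. For Bone against MatC, 1 member was called higher without replicate 3 of both cartilage groups, and 1 to 4 were called lower with 1 library left out. Over all genes, MatC against ImC gave 191 higher and 167 lower with library size only, 1225 higher without filter, 1373 and 856 with DESeq2, 157 and 48 with the 2 groups alone, 1327 and 581 without both replicates 3, and 267 to 949 and 88 to 342 with 1 library left out. Bone against MatC gave 119 and 178 with library size only, 445 and 1059 without filter, 676 and 1288 with DESeq2, 442 higher with the 2 groups alone, 426 lower with limma-voom, 564 and 1041 without both replicates 3, and 14 to 542 and 153 to 1160 with 1 library left out. Bone against ImC gave 1224 and 849 with library size only, and 1222 to 2618 and 1121 to 2790 with 1 library left out. Library size only moved the median of all genes to -0.51, 0.95 and 0.46 in the 3 comparisons.

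With 1 library left out, log2 fold changes of MatC against ImC ran from -0.777 to 0.199 for Foxa3, -0.004 to 2.151 for Foxc2, -0.124 to 0.818 for Foxo3 and -1.348 to 0.003 for Foxp2, and those of Bone against MatC from -0.175 to 0.242 for Foxc1 and -0.102 to 0.376 for Foxp1 (-0.109 without both replicates 3). Foxc1 in Bone against MatC was 0.866 with library size only, 0.004 with mitochondrial genes left out, 0.063 with the authors' factors, 0.063 without filter, 0.013 with a minimum count of 5, 0.016 with limma-voom and 0.018 with the replicate block. The mean Foxp1 over Foxp2 ratio in MatC ran from -0.033 to 1.829 with 1 MatC library left out (1.38 without replicate 2).

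Replicate numbers are shared between groups by title only. Deviations of same-numbered libraries correlated at 0.228, -0.043 and 0.24 between ImC and MatC, and at -0.131 to 0.099 in the pairs with Bone. Between differently numbered libraries of ImC and MatC the correlations ran from -0.396 to 0.36. These ranges overlap, so the numbers were not taken to pair the libraries. With the replicate block, 191 genes were called lower in MatC than in ImC, Foxp2 in Bone against MatC lost its call (-3.09, adjusted p = 0.111), and no other member's call changed. Few reads limit Foxa2 in ImC, Foxp2 in MatC replicate 3 and the FoxA genes in Bone.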
